A study of Mus musculus with 12 samples.

Results

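Wild type (WT) mouse embryonic stem cells (ESCs) were followed from the undifferentiated state at day 0 to day 3 of cardiac differentiation, by RNA sequencing of 6 of the 12 samples of the series. The members were chosen by their labels alone, as the 3 WT samples collected at day 0 and the 3 WT samples collected at day 3, and the other 6 samples, from *Meteor* knockout (KO) cells at the same times, entered only where stated. All cells derived from a single mouse ESC line with a C57BL/6 background according to the labels, and the *Eomes* locus of this line carries an EGFP reporter, in WT and KO cells alike, so that *Eomes* was measured in a line with an engineered allele. Day 0 cells were grown on mouse embryonic fibroblast feeders in serum with leukemia inhibitory factor (LIF), and day 3 cells were whole, unsorted embryoid bodies (EBs) formed in hanging drops without LIF. The labels do not say that the replicates were separate cultures, so p-values measure the spread between these samples, which may be technical.

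ESCs cultured in serum and LIF hold a naive pluripotent state, in which a network of transcription factors (*Klf4*, *Esrrb*, *Tfcp2l1*, *Nanog* and others) acts with *Pou5f1* and *Sox2* downstream of LIF and STAT3. When LIF is withdrawn the cells leave the naive state, pass through a formative and then a primed state like that of the epiblast before gastrulation, and, under WNT, NODAL and BMP signals, enter a program like that of the primitive streak. The streak gives rise to mesendoderm (ME), marked by *T* and *Eomes*, and ME gives rise to definitive endoderm and to paraxial, lateral plate, cardiac and blood-forming mesoderm. Expression of gene lists for each of these states, and of the signals between them, was compared between the days.

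Between 18386391 and 20415407 reads were assigned to genes in each of the 6 samples, and 21044 to 22219 genes had at least 1 count. The first principal component held 73.7% of the variance and separated the days, while the second, with 11.1%, separated day 3 replicate 3 from day 3 replicates 1 and 2. This library stood apart before any comparison was made. Of 13900 genes with a mean of at least 1 CPM (counts scaled by the size of each library), 558 (4.01%) were over 2-fold higher in day 3 replicate 3 than in either of the other day 3 libraries, against 66 and 105 genes for day 3 replicates 1 and 2. Day 0 replicate 3 was over 2-fold above both other day 0 libraries at 191 genes, which included 12 of 20 streak genes, and day 0 replicate 1 at 253. Where leaving out a replicate 3 library changed a call or moved a change or a list count by over 1.5 times, the value without it, or without both, is therefore given beside the result.

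**Figure D1:**
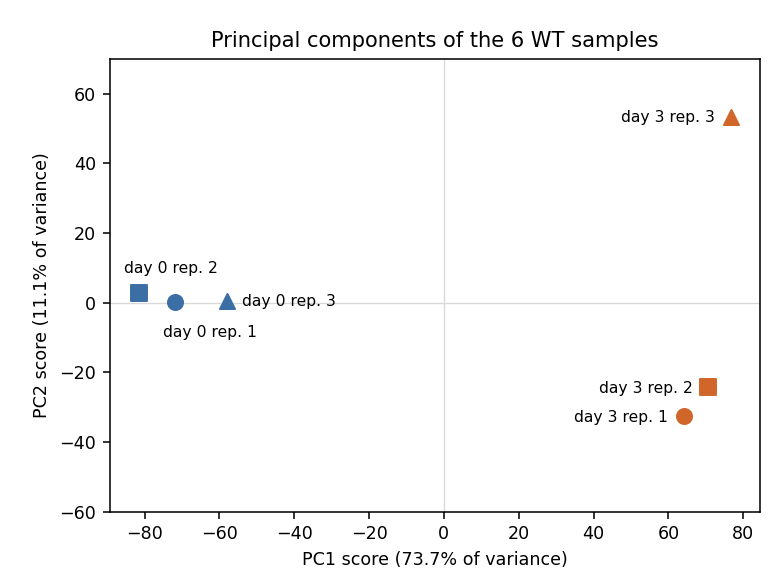
First and second principal component of log2 CPM over the genes tested in the 6 WT samples, with one labelled point per sample and the share of variance on each axis. Day 0 and day 3 samples lie on opposite sides of the first component (73.7%), and day 3 replicate 3 lies apart from replicates 1 and 2 on the second (11.1%).

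Of 15228 genes tested, 3581 (23.5%) rose and 3429 (22.5%) fell from day 0 to day 3 at an adjusted p below 0.05 (edgeR quasi-likelihood test), which made 46% of genes in either direction. Among 13934 protein-coding genes (PCGs) 3337 rose and 3195 fell, and 1871 rose (13.4%) and 1455 fell (10.4%) by more than 2-fold. The log2 fold change over all genes tested had a median of 0.03, with quartiles of -0.44 and 0.64. The 3 values of each day did not overlap at 58% of all genes tested, so neither a call nor a lack of overlap was rare, and list counts below are read against these shares. Values are CPM scaled by the TMM method, levels are given in the order of replicates 1, 2 and 3, and changes are log2 fold changes of day 3 against day 0 with their standard error (SE). Of the genes said below to have risen or fallen, *Apob*, *Cdh1*, *Cdh5*, *Ddit4*, *Dusp6*, *Etv2*, *Fgfr2*, *Gata4*, *Hand1*, *Hbb-bh1*, *Hsp90ab1*, *Kdr*, *Nodal*, *Notch1*, *Peg3*, *Tbx3*, *Tcf7*, *Ttr* and *mt-Cytb* did not pass the test in at least 1 of the 6 fits that left out 1 sample.

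The naive pluripotency network was almost wholly lower at day 3. Of its 20 listed genes 19 fell and none rose, with a median log2 fold change of -3.65, against 22.5% of all genes that fell. The summed level of the 20 genes was 4441, 4072 and 3495 CPM at day 0 and 630, 679 and 508 CPM at day 3. In RNA from whole cultures, fewer cells that express a gene and less RNA per cell cannot be told apart. The same 19 of 20 count was found without the 2 replicate 3 libraries.

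*Klf4*, a zinc-finger factor of the naive network on chromosome 4 (55527143 to 55532466, minus strand, GRCm38), had 390, 304 and 258 CPM at day 0 and 6.51, 9.04 and 11.9 CPM at day 3. Every day 0 value lay far above every day 3 value, and the mean level was 34.7-fold lower at day 3 (log2 fold change -5.12, SE 0.26, adjusted p = 3.21e-05). *Tfcp2l1*, a factor that acts downstream of STAT3, had 495, 470 and 471 CPM at day 0 and 25.6, 30.3 and 31.4 CPM at day 3, a log2 fold change of -4.04 (SE 0.12, adjusted p = 8.75e-06). The orphan nuclear receptor *Esrrb* fell from 681, 560 and 469 CPM to 31.7, 43.5 and 41.6 CPM. Its replicates were close to each other on both days and the groups were widely apart (log2 fold change -3.87, SE 0.19, adjusted p = 2.6e-05). *Klf2* (-4.03), the repressor *Nr0b1* (-4.39), the AKT co-activator *Tcl1* (-4.36) and the F-box gene *Fbxo15* (-4.33) fell by similar amounts on the log2 scale. The smallest fall in the list was that of *Zfp57*, which guards imprints, with 214, 329 and 258 CPM at day 0 and 96.8, 79.5 and 80.3 CPM at day 3 (log2 fold change -1.64, SE 0.17, adjusted p = 0.000366).

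*Zfp42* (Rex1), a zinc-finger gene in wide use as a reporter of the naive state, had 582, 487 and 383 CPM at day 0 and 27.2, 16.2 and 21.7 CPM at day 3, a 22.3-fold lower mean level (log2 fold change -4.48, SE 0.24, adjusted p = 3.21e-05). Its promoter is shown because it was the one promoter among 19 of the naive list (14 genes with an entry) that held the octamer ATGCAAAT, the sequence bound by POU-domain factors. The sequence runs from 250 bases before to 50 bases after the start given by RefSeq (GRCm38.p6, chr8:43306960-43307259, minus strand), with the octamer in capitals, read on the opposite strand at positions -186 to -179 from the gene start.
Zfp42: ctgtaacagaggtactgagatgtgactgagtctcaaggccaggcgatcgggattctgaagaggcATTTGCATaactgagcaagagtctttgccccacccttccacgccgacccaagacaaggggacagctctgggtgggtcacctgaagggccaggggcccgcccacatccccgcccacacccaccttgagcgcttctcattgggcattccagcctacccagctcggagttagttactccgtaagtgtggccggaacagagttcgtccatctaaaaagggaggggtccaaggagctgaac
Searched on both strands, the octamer was found in 570 of 32851 promoters of this length (1.74%). It was also in 1 of 16 promoters of the primitive streak list, that of *Evx1*. The match is a description of the sequence and not a binding site.

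*Nanog* was the exception in the naive list. It had 392, 330 and 330 CPM at day 0 and 341, 347 and 125 CPM at day 3, so that day 3 replicates 1 and 2 lay within the day 0 range and replicate 3 below it (log2 fold change -0.37, SE 0.34, adjusted p = 0.391). Without the 2 replicate 3 libraries the log2 fold change was -0.07 (adjusted p = 0.751). *Tbx3*, a T-box factor that is part of the naive network and is also expressed in mesoderm, had 160, 170 and 140 CPM at day 0 and 6.41, 9.08 and 71.3 CPM at day 3. Day 3 replicate 3 thus kept a level many times that of the other day 3 samples, and the log2 fold change of -2.44 (adjusted p = 0.0378) became -4.41 without the replicate 3 libraries (adjusted p = 2.37e-05).

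In the core pluripotency list, 7 of 10 genes fell and none rose (median log2 fold change -1.10), and the falls were smaller than those of the naive genes. *Sox2*, which pairs with OCT4 on pluripotency enhancers, had 482, 423 and 433 CPM at day 0 and 74.4, 62.5 and 60.9 CPM at day 3 (log2 fold change -2.76, SE 0.12, adjusted p = 2.32e-05). *Pou5f1*, which encodes OCT4, had 706, 901 and 829 CPM at day 0 and 632, 639 and 333 CPM at day 3. The days did not overlap, but the difference did not pass the test (log2 fold change -0.60, SE 0.24, adjusted p = 0.0692). The RNA-binding factor *Lin28a* (426, 616 and 740 CPM, then 712, 736 and 577 CPM) and the NODAL co-receptor gene *Tdgf1* (918, 736 and 670 CPM, then 875, 815 and 317 CPM) overlapped between days and did not pass the test (adjusted p = 0.472 and 0.631). *Dppa5a* (-2.78), *Dppa4* (-2.15), *Utf1* (-1.82), the co-repressor *Trim28* (-1.30) and *Sall4* (-0.90) fell. Scaled for exon length, *Pou5f1* went from a mean of 361 to 238 CPM per kilobase of exon (RPKM), *Nanog* from 156 to 121 RPKM, and *Klf4* from 104 to 3 RPKM.

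**Figure D2:**
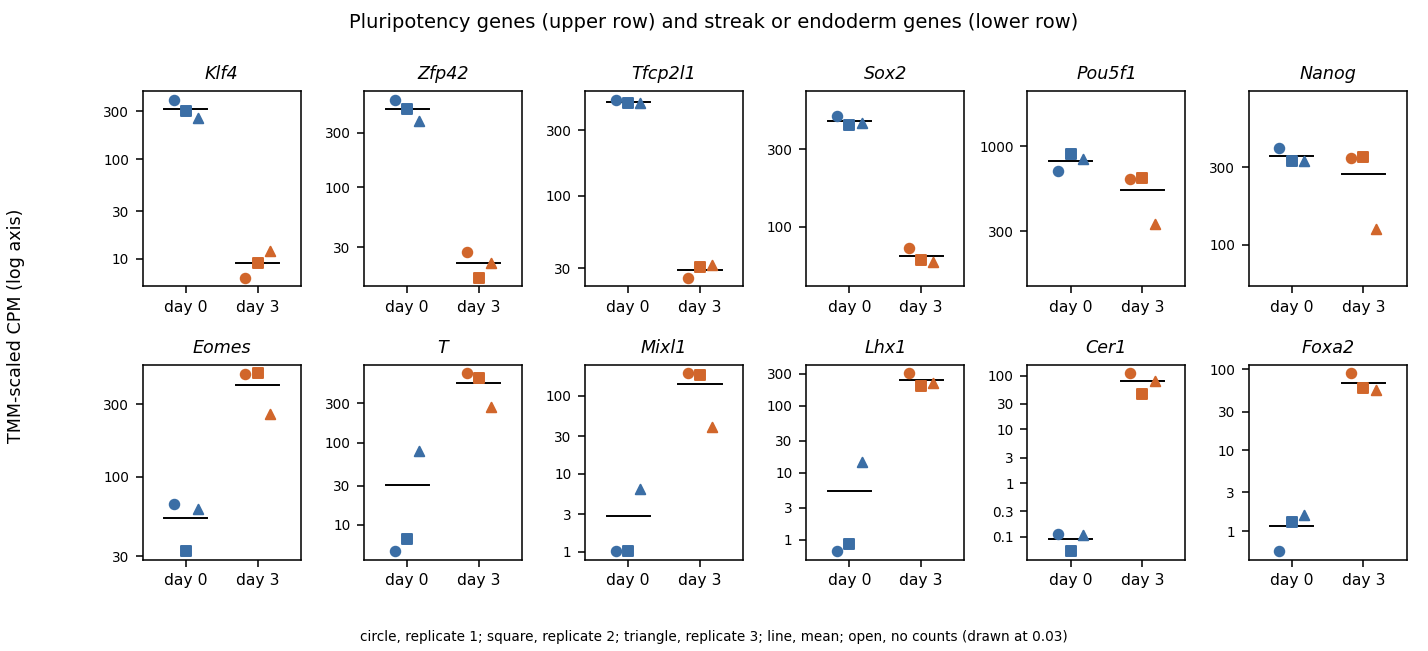
Level of 12 genes in each of the 6 WT samples, in TMM-scaled CPM on a log axis, with points for the 3 replicates of day 0 and of day 3. *Klf4*, *Zfp42*, *Tfcp2l1* and *Sox2* were lower and *Eomes*, *T*, *Mixl1*, *Lhx1*, *Cer1* and *Foxa2* higher in every day 3 sample, while *Nanog* overlapped between days.

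LIF signalling genes fell with the naive network: 9 of 12 fell and none rose (median log2 fold change -1.36), and 1 rose without day 0 replicate 1. *Socs3*, a feedback inhibitor that STAT3 induces, had 158, 96.4 and 93.5 CPM at day 0 and 8.89, 9.08 and 7.87 CPM at day 3 (log2 fold change -3.75, SE 0.23, adjusted p = 5.93e-05). *Stat3* itself went from 180, 230 and 259 CPM to 28.3, 57.1 and 72.3 CPM (log2 fold change -2.09, SE 0.32, adjusted p = 0.00162). The receptor genes *Lifr* (-1.07) and *Il6st* (-1.13) and the kinase genes *Pim1* (-1.60) and *Pim3* (-1.70) fell, whereas *Jak1* (0.07, adjusted p = 0.617) did not pass the test.

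Genes of the germ line and of the earliest embryo, which mouse ESC cultures express in part or in rare cells, were also lower. Of 18 tested genes 16 fell and none rose, with a median log2 fold change of -2.69. A gene could pass the filter of 1 CPM through its day 0 level alone, which favours falls among the genes tested. *Pramel6* and *Pramel7*, which had no count at day 3, passed it in this way. *Zscan4d*, of a cluster active in the 2-cell embryo, had 7.31, 5.76 and 3.33 CPM at day 0 and 0.14, 0.0961 and 0.0474 CPM at day 3 (log2 fold change -5.76, adjusted p = 0.000215). Members of the *Zscan4* cluster are near-identical copies, so their reads may be divided between them. *Pramel7*, linked to low DNA methylation in the inner cell mass, had 2.55, 1.79 and 1.64 CPM at day 0 and no count at day 3, at least 42-fold lower when day 3 is set to 3 counts over its 3 libraries. *Tfap2c*, which encodes an AP-2 factor of naive cells and germ cells, went from 79.8, 46.9 and 42.4 CPM to 6.97, 13.1 and 8.3 CPM (log2 fold change -2.58, adjusted p = 0.000717). The helicase gene *Ddx4* (-1.32) and the piRNA gene *Piwil2* (-2.80) fell, and *Mael* (-0.33, adjusted p = 0.401) and *Prdm1* (-0.47, adjusted p = 0.472) did not pass the test. Without day 3 replicate 3 the change of *Prdm1* was -1.41 and passed.

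Formative and primed epiblast genes were split. Of 20 genes 10 rose, 2 fell and 8 did not pass the test (median log2 fold change 0.93). *Fgf5*, the classical marker of the primed epiblast, had 2.61, 3.59 and 14.4 CPM at day 0 and 165, 108 and 61.8 CPM at day 3. All day 3 values were above all day 0 values, and both replicate 3 libraries lay closest to the other day (log2 fold change 4.02, SE 0.66, adjusted p = 0.00223). Its change was 5.46 without these libraries. *Otx2*, a homeobox factor that binds formative enhancers, had 35.2, 30.1 and 45 CPM at day 0 and 174, 150 and 172 CPM at day 3, with little spread on either day (log2 fold change 2.17, SE 0.16, adjusted p = 0.00012). *Cdh2* (2.60, and 3.45 without day 0 replicate 3), *Sall2* (1.52), *Sox4* (1.35) and *Zic2* (1.34) rose. *Pou3f1*, another formative factor, had 19, 20.5 and 31.9 CPM and then 26.8, 38.8 and 34.3 CPM, which overlapped (log2 fold change 0.48, adjusted p = 0.118). *Tcf15*, a factor linked to exit from the naive state, fell from 16.9, 36.1 and 32.3 CPM to 4.77, 6.01 and 4.5 CPM (log2 fold change -2.48, adjusted p = 0.000672).

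**Figure D3:**
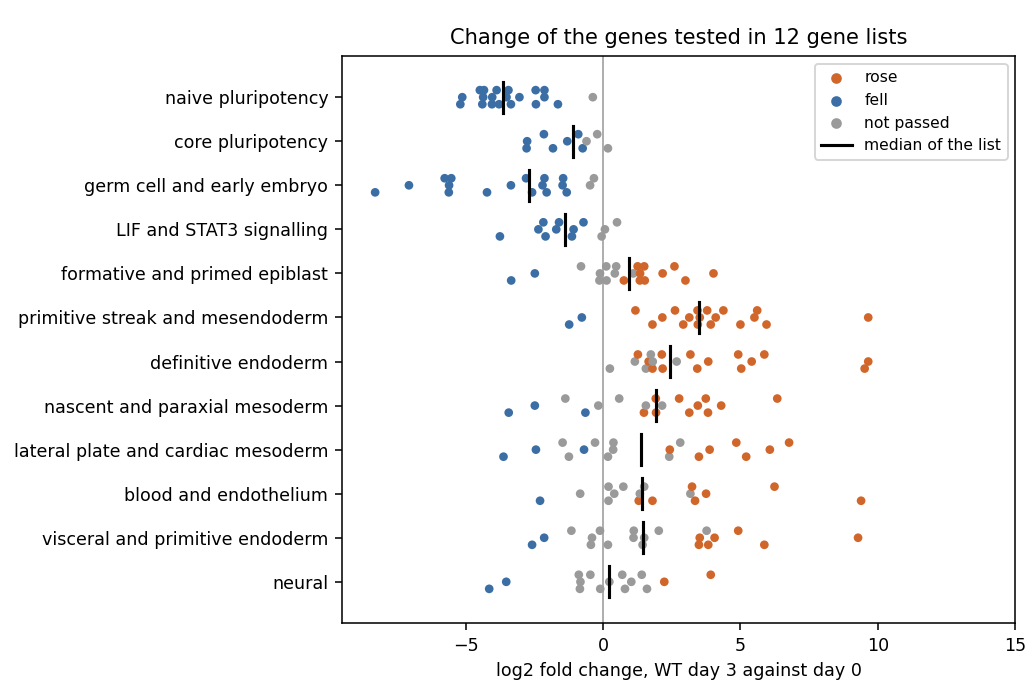
Log2 fold change of day 3 against day 0 for each tested member of 12 gene lists, one point per gene, coloured by whether it rose, fell or did not pass the test, with a bar at the median of each list. The naive list has its median at -3.65 and the streak list at 3.48, while the median over all genes tested was 0.03.

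The primitive streak and ME genes changed the other way. Of 20 genes 18 rose and 2 fell, against 23.5% and 22.5% of all genes tested, with a median log2 fold change of 3.48, and the values of the 2 days did not overlap for any of the 20 genes. The sum over the list was 461, 437 and 692 CPM at day 0 and 3166, 2961 and 1639 CPM at day 3, so that the replicate 3 libraries lay toward each other on both days. Without these 2 libraries 18 of 20 genes rose and 1 fell. Leaving out 1 sample at a time gave 18 that rose and 1 or 2 that fell.

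*T* (Brachyury), the T-box factor that defines the streak, had 4.82, 6.68 and 80 CPM at day 0 and 695, 612 and 268 CPM at day 3. Day 0 replicate 3 was far above the other day 0 samples and day 3 replicate 3 far below the other day 3 samples, and the log2 fold change was 4.10 (SE 1.03, adjusted p = 0.0133) with all 6 samples and 6.83 (adjusted p = 4.76e-06) without the 2 libraries. *Eomes*, a T-box factor required for ME, had 66.2, 32.4 and 61 CPM at day 0 and 473, 479 and 260 CPM at day 3 (log2 fold change 2.92, SE 0.33, adjusted p = 0.000496). *Mixl1*, a homeobox gene of the streak, had 1.02, 1.03 and 6.44 CPM at day 0 and 192, 185 and 39.5 CPM at day 3 (log2 fold change 5.61, SE 0.87, adjusted p = 0.00176). *Lhx1*, a LIM homeobox gene of anterior ME, had 0.68, 0.869 and 14.4 CPM at day 0 and 305, 199 and 223 CPM at day 3 (log2 fold change 5.51, SE 0.96, adjusted p = 0.00296). For both genes day 0 replicate 3 had the highest day 0 value and lay far below day 3, and without the replicate 3 libraries the changes were 7.51 for *Mixl1* and 8.33 for *Lhx1*. The organizer gene *Gsc* rose from 0.113, 0.543 and 1.69 CPM to 35.7, 29.4 and 10.8 CPM. Its change was 6.59 without the replicate 3 libraries. The apelin receptor gene *Aplnr* rose from 0.283, 0.163 and 5.02 CPM to 107, 101 and 132 CPM (log2 fold change 5.95, and 8.83 without the replicate 3 libraries). *Evx1* (3.79), *Sp8* (3.92), *Apln* (3.52), *Tbx6* (3.14) and *Snai1* (2.16), a repressor of epithelial genes, rose as well. The changes without the replicate 3 libraries were 4.83 for *Evx1*, 5.07 for *Sp8* and 4.88 for *Apln*.

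*Sp5*, a zinc-finger gene that WNT and beta-catenin induce, had 4.59, 4.89 and 14.1 CPM at day 0 and 55.2, 71.9 and 17.9 CPM at day 3. The 2 days came close to each other in the replicate 3 libraries only, and the log2 fold change of 2.62 (SE 0.59, adjusted p = 0.00873) was 3.74 without them (adjusted p = 3.95e-05). Its promoter is shown because it was the one promoter among 16 of the streak list (14 genes with an entry) that held CTTTGAT, the core of the TCF/LEF motif, in capitals at positions -104 to -98 from the RefSeq gene start (GRCm38.p6, chr2:70474673-70474972, plus strand).
Sp5: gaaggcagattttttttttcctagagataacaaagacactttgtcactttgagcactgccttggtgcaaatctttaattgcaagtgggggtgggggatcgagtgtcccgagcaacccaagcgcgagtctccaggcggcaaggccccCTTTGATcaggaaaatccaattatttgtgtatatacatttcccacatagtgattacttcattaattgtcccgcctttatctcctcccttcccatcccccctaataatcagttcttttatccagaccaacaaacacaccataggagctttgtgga
This motif, searched on both strands, was in 1225 of 32851 promoters (3.73%), and a match says nothing of binding.

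Genes of definitive endoderm rose in most cases: 14 of 20 rose and none fell, with a median log2 fold change of 2.42, and without the replicate 3 libraries 15 rose. Of the 20 genes 13 were over 2-fold higher in day 3 replicate 3 than in both other day 3 samples. The largest change of any named gene was that of *Cer1*, a secreted antagonist of NODAL, WNT and BMP on chromosome 4 (82881751 to 82885148, minus strand). *Cer1* had 0.113, 0.0543 and 0.109 CPM at day 0, which were 5 counts in all, and 111, 45.5 and 79.6 CPM at day 3, an 853-fold higher mean level (log2 fold change 9.65, SE 0.52, adjusted p = 3.21e-05). *Foxa2*, a pioneer factor of endoderm and axial mesoderm, had 0.567, 1.3 and 1.58 CPM at day 0 and 89.1, 59 and 55.3 CPM at day 3 (log2 fold change 5.87, SE 0.35, adjusted p = 5.39e-05). *Sox17*, which specifies definitive endoderm, had 0.51, 1.2 and 0.546 CPM at day 0 and 14.8, 11.2 and 43 CPM at day 3 (log2 fold change 4.92, SE 0.63, adjusted p = 0.000852). Its change was 4.10 without day 3 replicate 3. In each of these genes the days were far apart in all 6 samples. *Gata6* (3.83), the chemokine receptor gene *Cxcr4* (3.43, and 2.60 without day 3 replicate 3) and *Hhex* (1.80) rose. *Shh*, which encodes a hedgehog ligand, was at 0 in all 3 day 0 samples and at 1.54, 0.913 and 11.6 CPM at day 3, at least 84.7-fold higher. This bound was 22.3-fold without day 3 replicate 3. *Foxa1*, a relative of *Foxa2*, did not pass the test (1.74, adjusted p = 0.0501, and 0.62 without day 3 replicate 3).

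The list of nascent and paraxial mesoderm had 18 of 20 genes tested, of which 10 rose and 3 fell (median log2 fold change 1.93). *Mesp1*, a bHLH factor of early mesoderm and of heart precursors on chromosome 7 (79792241 to 79793788, minus strand), had 0, 0 and 0.928 CPM at day 0 and 21.1, 28 and 28.4 CPM at day 3. The 3 day 3 samples were close to each other and far above day 0 (log2 fold change 6.34, SE 0.85, adjusted p = 0.00102), and day 0 replicate 3 held all 17 of the day 0 counts. Without that library day 0 had no count, and day 3 was at least 310-fold higher when the other day 0 libraries are set to 3 counts in all. *Pdgfra*, a receptor gene used as a surface marker of mesoderm, had 3.17, 6.9 and 4.15 CPM at day 0 and 37.3, 37.8 and 81 CPM at day 3 (log2 fold change 3.45, SE 0.41, adjusted p = 0.00058). *Kdr*, which encodes the VEGF receptor of blood and cardiovascular progenitors, went from 3.46, 5.71 and 11.8 CPM to 21.9, 19.1 and 257 CPM. Day 3 replicate 3 was far above the other day 3 samples, and the log2 fold change of 3.82 (adjusted p = 0.0205) was 1.55 without it (adjusted p = 0.021) and 4.43 without day 0 replicate 3. The WNT agonist gene *Rspo3* (4.30, and 5.67 without day 0 replicate 3), *Msgn1* (3.74, and 5.83 without day 0 replicate 3) and the Notch ligand gene *Dll3* (1.93) rose, and the somite genes *Meox1* (-3.43) and *Tcf15* fell.

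Genes of lateral plate and cardiac mesoderm were set largely by 1 library. Of 18 tested genes 7 rose and 3 fell with all samples, but without day 3 replicate 3 the count was 3 that rose and 8 that fell. *Hand2* and *Foxf1*, which rose with all samples, did not exceed 1 CPM without that library and were not tested there. Without both replicate 3 libraries 3 rose and 6 fell. Leaving out any 1 of the other samples gave 2 to 8 that rose and 1 that fell, with 2 that rose without day 0 replicate 1. The sum over the list was 237, 353 and 278 CPM at day 0 and 65.2, 66.8 and 561 CPM at day 3. Most of the day 0 sum came from *Tbx3*, which is also in the naive list, and from *Ttn*, so its fall in day 3 replicates 1 and 2 does not describe the other genes. Of the 18 genes 16 were over 2-fold higher in day 3 replicate 3 than in both other day 3 samples. *Hand1*, a bHLH factor of lateral mesoderm and extraembryonic tissue, had 1.13, 0.706 and 1.86 CPM at day 0 and 1.69, 1.25 and 105 CPM at day 3. The first 2 day 3 values lay within the day 0 range, and the log2 fold change of 4.85 (adjusted p = 0.0438) was 0.67 without the replicate 3 libraries (adjusted p = 0.328). *Gata4*, a zinc-finger factor of heart and endoderm, had 1.87, 6.36 and 3.17 CPM and then 15.4, 12.2 and 101 CPM, and it rose both with all samples (log2 fold change 3.49, adjusted p = 0.0137, and 4.08 without day 0 replicate 2) and without the replicate 3 libraries (1.74, adjusted p = 0.026). *Myl7*, which encodes an atrial myosin light chain, had 0.227, 0.163 and 0.164 CPM at day 0 and 8.29, 7.79 and 46.2 CPM at day 3 (log2 fold change 6.77, SE 0.95, adjusted p = 0.00118, and 5.33 without the replicate 3 libraries, adjusted p = 0.000123). *Mef2c*, a partner of the cardiac factors, rose (2.43, and 1.59 without day 3 replicate 3). *Ttn*, the giant sarcomere gene, fell from 25, 128 and 62.2 CPM to 4.59, 3.51 and 9.34 CPM (log2 fold change -3.62, adjusted p = 0.00267). The change of *Ttn* was -2.91 without day 0 replicate 2, its highest sample. The summed feeder fibroblast markers had the same order at day 0 (210, 615 and 422 CPM). What part feeder RNA had in the *Ttn* values was not tested. *Nkx2-5* (-1.47, adjusted p = 0.25) and *Tbx20* (2.81, adjusted p = 0.0955) did not pass the test, but *Nkx2-5* fell by 3.78 on the log2 scale and passed without day 3 replicate 3. The change of *Tbx20* was -0.41 without that library. *Tbx5* and *Gata5* did not reach 1 CPM in any sample.

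Blood and endothelial genes had the same dependence. Of 16 tested genes 7 rose and 1 fell, against 2 that rose and 4 that fell without day 3 replicate 3. *Hba-x* and *Hbb-bh1*, which rose with all samples, did not exceed 1 CPM without that library and were not tested there. Without day 0 replicate 1, 2 or 3 the count that rose was 3, 2 or 4. In all, 13 of the 16 were over 2-fold higher in day 3 replicate 3 than in both other day 3 samples. *Cdh5*, the endothelial cadherin gene, had 1.19, 1.58 and 1.53 CPM at day 0 and 2.81, 2.07 and 39.3 CPM at day 3 (log2 fold change 3.35, adjusted p = 0.0369, and 0.82 without the replicate 3 libraries, adjusted p = 0.166). *Tal1*, a factor of blood progenitors, had 0.737, 1.68 and 2.35 CPM and then 2.39, 1.54 and 39.5 CPM (log2 fold change 3.18, adjusted p = 0.0594, and 0.31 without day 3 replicate 3). The embryonic globin gene *Hbb-bh1* had no count at day 0 and 0.936, 0.481 and 11.4 CPM at day 3, at least 77.6-fold higher. The bound was 12.8-fold without day 3 replicate 3. *Lmo2*, a partner of TAL1, had 1.53, 0.924 and 2.57 CPM and then 10.9, 14 and 22.5 CPM, and it rose both with all samples (log2 fold change 3.24, adjusted p = 0.00092) and without the replicate 3 libraries (3.34, adjusted p = 0.000455). *Etv2*, an ETS factor of haemangioblasts, rose from 2.27, 2.45 and 5.84 CPM to 6.74, 8.12 and 11.2 CPM (adjusted p = 0.0299). Its change was 1.89 without day 0 replicate 3 and did not pass the test without day 3 replicate 3 (1.08, adjusted p = 0.0711). *Pecam1*, an adhesion gene of endothelium that ESCs also express, fell from 98.9, 73.4 and 41.5 CPM to 11.4, 8.6 and 23.8 CPM (log2 fold change -2.29, adjusted p = 0.00398, and -3.11 without the replicate 3 libraries).

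**Figure D4:**
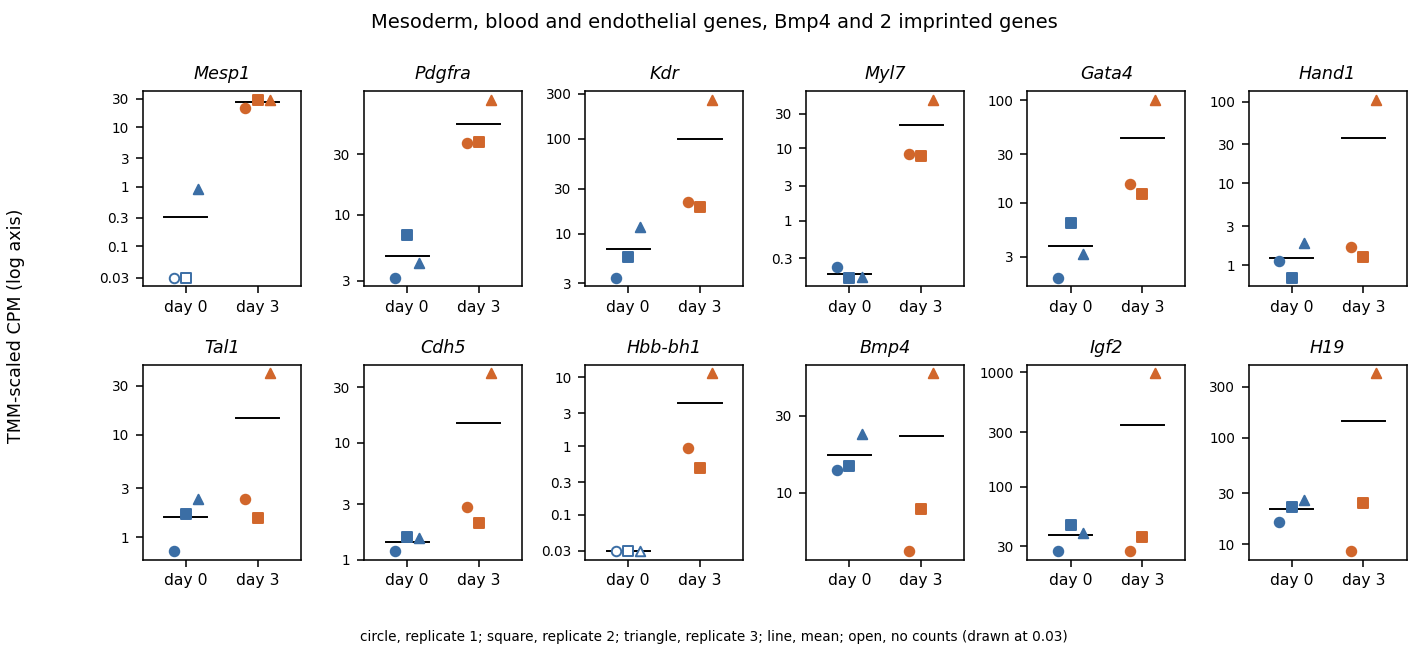
Level of 12 mesoderm, blood, BMP and growth genes in each of the 6 WT samples, in TMM-scaled CPM on a log axis, with points for the 3 replicates of each day. *Mesp1* and *Pdgfra* were higher in all 3 day 3 samples, whereas *Hand1*, *Tal1*, *Cdh5*, *Igf2* and *H19* were high in day 3 replicate 3 alone.

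Visceral endoderm genes gave 7 that rose, 2 that fell and 11 that did not pass the test (median log2 fold change 1.47), and 14 of the 20 were over 2-fold higher in day 3 replicate 3 than in both other day 3 samples. Without that library 5 rose and 4 fell, and *Ttr*, which rose with all samples, did not exceed 1 CPM and was not tested. Without day 0 replicate 1 the count that rose was 4. Of the 7 that rose, *Foxa2*, *Gata4*, *Gata6* and *Sox17* also belong to other lists here. *Ttr*, which encodes transthyretin, had no count at day 0 and 0.14, 0.433 and 11.3 CPM at day 3, at least 71.6-fold higher. It was at least 5.19-fold higher without day 3 replicate 3. *Apob*, the apolipoprotein B gene, had 2.61, 4.62 and 2.78 CPM and then 2.76, 10.5 and 102 CPM, a rise with all samples (log2 fold change 3.52, adjusted p = 0.0375) that did not pass the test without the replicate 3 libraries (0.88, adjusted p = 0.274). Trophectoderm genes gave 3 that rose and 2 that fell among 13 tested. Of the 13 genes 9 were over 2-fold higher in day 3 replicate 3 than in both other day 3 samples. Without that library 2 rose and 3 fell. The count that rose was 1 without day 0 replicate 2, 6 without day 3 replicate 1 and 5 without day 3 replicate 2. *Cdx2*, the factor that defines trophectoderm and also marks posterior mesoderm, had 0.397, 0.815 and 5.24 CPM and then 4.4, 3.65 and 11 CPM (log2 fold change 1.56, adjusted p = 0.166). When day 0 replicate 3 was left out it rose by 3.38 and passed the test. What part extraembryonic cells had in these values was not tested.

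Neural genes showed no common direction. Of 24 genes 15 were tested, of which 2 rose, 2 fell and 11 did not pass the test (median log2 fold change 0.23), against 3 that rose and 4 that fell without day 3 replicate 3 and 4 in each direction without both replicate 3 libraries. *Pax6*, a factor of forebrain and eye, fell from 12.4, 19.5 and 18.6 CPM to 0.609, 1.11 and 1.14 CPM (log2 fold change -4.14, SE 0.32, adjusted p = 0.000138), and *Tubb3*, a neuronal tubulin gene, from 133, 149 and 118 CPM to 12.2, 13.7 and 9.01 CPM (log2 fold change -3.52, adjusted p = 3.21e-05). *Dcx* (3.92, and 4.65 without the replicate 3 libraries) and *Irx3* (2.23, and 2.83 without day 0 replicate 3) rose from low levels. *Sox1*, the earliest neural plate marker, had 0.68, 2.34 and 2.84 CPM and then 1.08, 1.54 and 0.569 CPM, which overlapped (adjusted p = 0.243).

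Most WNT ligand genes that could be tested rose: of 19 listed 12 were tested, of which 9 rose and 1 fell, with a median log2 fold change of 2.70. The other 7 did not exceed 1 CPM in any sample. A gene could pass this filter through its day 3 level alone, which favours rises among the ligands tested. *Wnt3*, the ligand needed for streak formation in the mouse, had 1.98, 3.42 and 11.7 CPM at day 0 and 65.9, 73 and 48.2 CPM at day 3 (log2 fold change 3.44, SE 0.57, adjusted p = 0.00231). The change was 4.68 without the replicate 3 libraries. *Wnt8a*, expressed in the posterior epiblast, had 4.99, 5.38 and 11.5 CPM and then 87.4, 70.3 and 17.3 CPM, with day 3 replicate 3 nearest to day 0 (log2 fold change 3.00, adjusted p = 0.00498, and 3.93 without the replicate 3 libraries). *Wnt2b* (3.26, and 3.86 without day 0 replicate 3), *Wnt5b* (2.74, and 3.54 without it), *Wnt11* (2.65) and *Wnt5a* (2.15, and 1.41 without day 3 replicate 3) rose and *Wnt7b* (-2.97) fell. Among 19 target and feedback genes 9 rose, 2 fell and 8 did not pass the test, and 4 fell without day 3 replicate 3. *Axin2*, a direct target and inhibitor of the pathway, had 20.7, 17.6 and 36.4 CPM and then 102, 94.8 and 62.6 CPM (log2 fold change 1.80, SE 0.30, adjusted p = 0.00231). *Dkk1*, which encodes a secreted inhibitor, had 0.51, 1.09 and 2.13 CPM and then 29.5, 23 and 70.5 CPM (log2 fold change 5.03, SE 0.60, adjusted p = 0.000611). It was 5.67 without day 0 replicate 3 and 4.39 without day 3 replicate 3. The receptor gene *Lgr5* rose from 0.907, 1.14 and 2.29 CPM to 31.8, 13.1 and 24.9 CPM, and the inhibitor *Nkd1* (2.72) rose, as did the secreted antagonist *Frzb* (5.41, and 6.45 without day 0 replicate 3) of the endoderm list. *Notum*, which encodes an enzyme that inactivates WNT proteins, fell from 22.4, 43.4 and 35.2 CPM to 3.98, 4.33 and 3.08 CPM (log2 fold change -3.15, adjusted p = 0.00021), and the repressor *Tcf7l1* fell (-0.77) while *Tcf7* rose (0.83).

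NODAL pathway genes moved in both directions. Of 20 tested 9 rose, 5 fell and 6 did not pass the test (median log2 fold change 0.17). Among the ligands and their inhibitors, *Nodal* had 96.9, 65.5 and 84.1 CPM at day 0 and 65, 47.9 and 31.4 CPM at day 3 (log2 fold change -0.77, SE 0.26, adjusted p = 0.0403), a fall that did not pass the test without the replicate 3 libraries (-0.52, adjusted p = 0.114). The related ligand gene *Gdf3* fell from 80.3, 122 and 98.5 CPM to 10.9, 7.11 and 10.1 CPM (log2 fold change -3.42, adjusted p = 7.3e-05). *Lefty1*, a feedback inhibitor, fell from 127, 173 and 120 CPM to 44.5, 35.3 and 20.9 CPM (log2 fold change -2.06, adjusted p = 0.000979), and *Lefty2* also fell (-1.23). On the receptor side, the co-receptor gene *Cfc1* (Cryptic) rose from 0.567, 0.326 and 0.328 CPM to 11.2, 5.82 and 49.9 CPM (log2 fold change 5.76, SE 0.92, adjusted p = 0.00203). Its change was 4.37 without day 3 replicate 3, the highest sample. *Tdgf1*, its relative, overlapped between days as given above. The effector genes *Foxh1* (1.18), *Smad3* (1.20) and *Smad4* (0.58) rose, and *Smad2* (-0.31, adjusted p = 0.0866) did not pass the test.

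In the BMP pathway 11 of 24 genes rose, 3 fell and 10 did not pass the test (median log2 fold change 0.73), and 11 of the 24 were over 2-fold higher in day 3 replicate 3 than in both other day 3 samples. Without that library 7 rose and 5 fell, and *Bmp5*, which rose with all samples, did not exceed 1 CPM and was not tested. When day 0 replicate 1 or 2 was left out 7 rose. *Bmp4*, the ligand that patterns ventral mesoderm, had 13.8, 14.7 and 23 CPM at day 0 and 4.35, 7.88 and 54.9 CPM at day 3. Day 3 replicates 1 and 2 were below and replicate 3 above every day 0 sample, and the log2 fold change was 0.38 with all samples (adjusted p = 0.72) and -1.48 without day 3 replicate 3 (adjusted p = 0.0103). *Bmp2* rose from 0.907, 0.761 and 3 CPM to 8.57, 8.99 and 53.8 CPM (log2 fold change 3.93, adjusted p = 0.00858). Its change was 2.49 without day 3 replicate 3 (adjusted p = 0.00711) and 4.83 without day 0 replicate 3. *Bmp7* (2.46, and 3.14 without day 0 replicate 1) rose and *Bmp8b* (-2.36) fell. Of the secreted inhibitors, follistatin (*Fst*) rose from 6.74, 8.86 and 30.1 CPM to 430, 420 and 102 CPM (log2 fold change 4.38, SE 0.73, adjusted p = 0.00247, and 5.77 without the replicate 3 libraries). *Chrd* rose (3.18) and *Grem1* fell (-4.10, and -3.37 without day 0 replicate 3). *Smad1*, which encodes a transducer of BMP signals, had 15, 15.9 and 18.2 CPM and then 68.1, 69.4 and 80.7 CPM, among the tightest changes in the list (log2 fold change 2.15, SE 0.13, adjusted p = 5.93e-05). The target genes *Id1* (-0.17), *Id2* (-0.13) and *Id3* (0.14) did not pass the test (adjusted p = 0.806, 0.845 and 0.74). *Id1* and *Id2* had changes of -0.99 and -0.90 without day 3 replicate 3, which did not pass either (adjusted p = 0.0597 and 0.0538).

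FGF and ERK genes were balanced, with 8 of 23 that rose, 8 that fell and 7 that did not pass the test, and 5 that fell without day 0 replicate 1 or 2. *Fgf4*, the ligand that drives exit from the naive state, fell from 137, 106 and 111 CPM to 13.9, 11.6 and 23.7 CPM (log2 fold change -2.85, SE 0.27, adjusted p = 0.000257). *Fgf8*, a ligand of the streak, rose from 2.04, 3.97 and 19.2 CPM to 110, 124 and 42.6 CPM (log2 fold change 3.45, SE 0.78, adjusted p = 0.00842). This was 5.28 without the replicate 3 libraries. *Fgf5*, *Fgf3* (3.61, and 2.39 without day 3 replicate 3) and *Fgf10* (3.30, and 2.54 without it) rose with it and *Fgf18* (-3.74) fell. The ERK feedback genes were not of one direction either, since *Spry4* (-2.03) and the ETS factor gene *Etv5* (-1.42) fell and *Dusp6* (1.25), *Dusp4* (1.47) and *Spry1* (1.11) rose. Among receptors *Fgfr1* (0.51) rose and *Fgfr2* (-1.61, and -2.52 without day 3 replicate 3) fell.

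**Figure D5:**
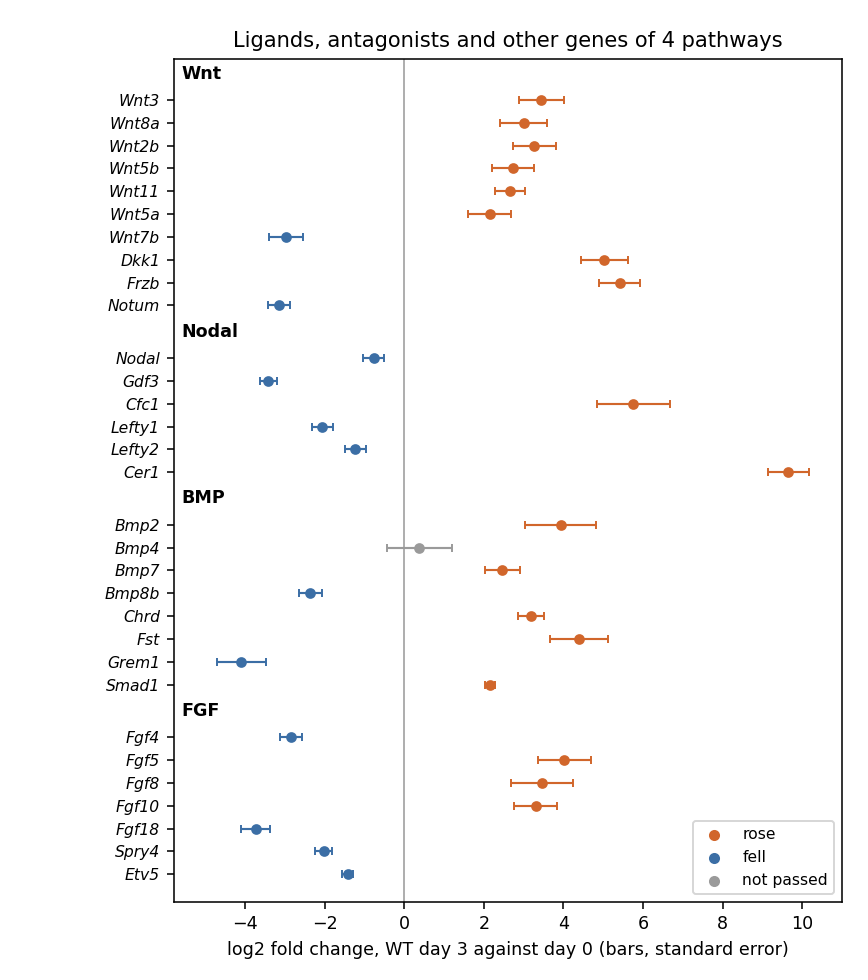
Log2 fold change of day 3 against day 0, with bars of 1 SE, for genes of the WNT, NODAL, BMP and FGF pathways in 6 WT samples. *Wnt3*, *Cer1*, *Cfc1*, *Fst*, *Fgf5* and *Fgf8* lie to the positive side and *Gdf3*, *Lefty1*, *Notum*, *Grem1*, *Fgf4* and *Fgf18* to the negative side.

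Of 20 Notch genes 4 rose and 9 fell (median log2 fold change -0.38), and 5 fell without day 0 replicate 2. *Notch4* (-1.56), *Notch1* (-1.01), the modifier *Mfng* (-1.60) and the ligand gene *Jag1* (-0.67) fell, and the ligand gene *Dll3*, the effector gene *Hes1* (1.61) and the receptor gene *Notch3* (0.83) rose. Genes of retinoic acid signalling gave 4 that rose and 4 that fell among 15 tested. *Cyp26a1*, which encodes the enzyme that breaks retinoic acid down, rose from 1.36, 1.9 and 5.68 CPM to 77, 57.2 and 128 CPM (log2 fold change 4.87, SE 0.54, adjusted p = 0.00048, and 5.74 without day 0 replicate 3), while the receptor genes *Rarg* (-1.39) and *Rara* (-1.04) fell.

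Epithelial genes did not fall as a group: 9 of 20 rose, 2 fell and 9 did not pass the test (median log2 fold change 0.80), and 1 fell without day 0 replicate 3 or day 3 replicate 2. *Cdh1*, which encodes E-cadherin, had 732, 708 and 811 CPM at day 0 and 558, 562 and 605 CPM at day 3, a small fall (log2 fold change -0.38, SE 0.10, adjusted p = 0.013) that did not pass the test without the replicate 3 libraries (-0.36, adjusted p = 0.0769). The tight junction gene *Cldn7* (2.06), *Ocln* (1.12) and the splicing factor gene *Esrp1* (0.82) rose, and *Epcam* (0.10, adjusted p = 0.639) did not pass the test. In the mesenchymal list 6 of 20 rose and 4 fell, but 8 fell without day 3 replicate 3. The sum over this list was 1689, 1781 and 4055 CPM at day 3, and 7 of the 20 genes were over 2-fold higher in replicate 3 than in both other day 3 samples. *Cdh2*, which encodes N-cadherin, went from 11.7, 18.4 and 51.2 CPM to 159, 142 and 190 CPM (log2 fold change 2.60, SE 0.48, adjusted p = 0.00383, and 3.45 without day 0 replicate 3). *Cdh11* went from 1.7, 10.7 and 9.61 CPM to 74, 65.5 and 85.8 CPM (log2 fold change 3.35, adjusted p = 0.0019). *Zeb2* (1.88) rose, whereas *Vim* (-0.60, adjusted p = 0.137) and *Snai2* (0.05, adjusted p = 0.956, and -1.14 without day 3 replicate 3) did not pass the test. *Col1a1* (-2.79, and -2.13 without day 0 replicate 2) and *Lox* (-3.32, and -2.72 without it) fell, and these are genes of fibroblasts. Feeder fibroblast markers fell at 8 of 15 tested genes (5 without day 0 replicate 2, day 3 replicate 1 or day 3 replicate 2) and rose at none, with a sum of 210, 615 and 422 CPM at day 0 and 130, 137 and 190 CPM at day 3, and none of the defining markers was at 0. The part of feeder RNA in the day 0 values was not tested.

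Genes of DNA methylation and demethylation gave 4 that rose and 6 that fell among 14, and 2 that rose when day 0 replicate 2 or 3 or day 3 replicate 1 or 2 was left out. *Dnmt3b*, the de novo methyltransferase gene of the epiblast, rose from 450, 595 and 744 CPM to 1405, 1525 and 1340 CPM (log2 fold change 1.26, SE 0.18, adjusted p = 0.00117). *Dnmt3l*, its cofactor in ESCs and germ cells, fell from 229, 260 and 205 CPM to 20.7, 13.5 and 34.1 CPM (log2 fold change -3.34, SE 0.31, adjusted p = 0.000257). *Dnmt3a* (-0.13, adjusted p = 0.589) did not pass the test. The demethylation enzyme gene *Tet1* fell from 620, 1144 and 884 CPM to 138, 258 and 248 CPM (log2 fold change -2.04, adjusted p = 0.00123), *Tet2* fell (-2.13) and *Tet3* rose (1.22).

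Imprinted genes and oncofetal RNA-binding factors, both active in growing embryonic tissue, were mixed. Of 25 imprinted genes 9 rose, 4 fell and 12 did not pass the test, and 4 rose without day 0 replicate 2. *Igf2*, the fetal growth factor gene, had 27.5, 46.4 and 39.5 CPM at day 0 and 27.4, 36.4 and 975 CPM at day 3, and its neighbour *H19* had 16.1, 22.5 and 25.9 CPM and then 8.66, 24.3 and 399 CPM. Day 3 replicates 1 and 2 of both genes lay near or within the day 0 range, and neither gene passed the test (log2 fold change 3.19 and 2.74, adjusted p = 0.068 and 0.0929). Their changes were -0.24 and -0.38 without day 3 replicate 3. *Peg3*, an imprinted zinc-finger gene, rose from 238, 219 and 323 CPM to 465, 480 and 1202 CPM (log2 fold change 1.46, adjusted p = 0.0132, and 0.87 without day 3 replicate 3), and *Ndn* (1.42) and *Meg3* (0.76) rose while *Phlda2* (-1.30) fell. Of 9 oncofetal factors 4 rose and 2 fell. *Hmga2*, a chromatin factor, rose from 13.8, 34.3 and 43.8 CPM to 191, 165 and 432 CPM (log2 fold change 3.10, SE 0.50, adjusted p = 0.00211), and *Igf2bp3* (1.51) and *Lin28b* (0.85) rose while *Igf2bp1* (-0.65) and *Trim71* (-0.94) fell.

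Apart from the lists, the 10 PCGs with the largest rise among those with a mean of at least 10 CPM on the higher day were *Cer1*, *Prdm6*, *Myl7*, *Mesp1*, *Aplnr*, *Asb4*, *Pkd1l1*, *Foxa2*, *Cfc1* and *Mixl1*. *Prdm6*, a regulator of smooth muscle, had 0.0567, 0.0543 and 0 CPM at day 0 and 2.95, 3.27 and 35.7 CPM at day 3 (log2 fold change 8.34, SE 1.53, adjusted p = 0.00366), and its change was 5.66 without the replicate 3 libraries. *Asb4*, of the ankyrin repeat and SOCS box family, had 38.8, 19.8 and 154 CPM at day 3 and rose by 5.93 on the log2 scale, or by 4.66 without day 3 replicate 3. *Pkd1l1*, a polycystin gene of left-right patterning, rose by 5.91. Of the 10 largest falls, that of *Inhbb* came first. This gene, on chromosome 1 (119415465 to 119422248, minus strand), encodes the beta B subunit of activin and had 30.3, 49.9 and 36.1 CPM at day 0 and 0.234, 0.336 and 0.521 CPM at day 3, a 107-fold lower mean level (log2 fold change -6.71, SE 0.33, adjusted p = 2.66e-05). The retinoic acid-induced meiotic gene *Stra8* (-6.42), *Myo1f* (-6.27), *Mobp* (-5.66, and -4.90 without day 0 replicate 1), *Krt42* (-5.62), *Calcoco2* (-5.42), *Ptgs2* (-5.41), *Spic* (-5.19) and *Klf4* were the others, with *Jam2*, a junctional adhesion gene that had 244, 232 and 166 CPM at day 0 and 4.21, 4.18 and 3.75 CPM at day 3 (log2 fold change -5.72, SE 0.19, adjusted p = 1.18e-05).

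By gain in mean level, the first PCGs were the lipid desaturase gene *Scd2* (log2 fold change 1.06), *Dnmt3b*, *Amot*, *Hmgcs1* and *Emb* (1.87). *Hmgcs1*, which encodes an enzyme of the mevalonate pathway to cholesterol, had 356, 298 and 380 CPM at day 0 and 1060, 978 and 1056 CPM at day 3 (log2 fold change 1.58, SE 0.12, adjusted p = 0.000109). *Amot*, a scaffold of Hippo signalling, had 24.3, 34.7 and 96 CPM and then 347, 278 and 1708 CPM, with day 3 replicate 3 far above the other day 3 samples (log2 fold change 3.91, 2.60 without it and 4.72 without day 0 replicate 3). The largest losses in mean level were those of the mitochondrial genes *mt-Nd1* (-0.99) and *mt-Cytb* (-0.68), the chaperone gene *Hsp90ab1* (-0.42), the nucleolin gene *Ncl* (-0.62) and *Actb* (-0.82), which are abundant RNAs with small fold changes. The falls of *Hsp90ab1* and *mt-Cytb* did not pass the test without the replicate 3 libraries (adjusted p = 0.179 and 0.0686).

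Of 627 tested lncRNA genes 161 (25.7%) rose and 130 (20.7%) fell, and 140 rose and 112 fell by more than 2-fold (40.2% in either direction), with a median log2 fold change of 0.35. The largest rise among those with a mean of at least 3 CPM was that of 9030622O22Rik on chromosome 2 (147944740 to 148040203, minus strand), which lies next to *Foxa2* and had 0, 0.0543 and 0.0546 CPM at day 0 and 2.06, 1.44 and 5.88 CPM at day 3 (log2 fold change 6.18, SE 0.90, adjusted p = 0.00136, and 5.35 without day 3 replicate 3). Gm26794 followed (4.74, and 5.66 without day 0 replicate 3). *Evx1os*, antisense to *Evx1* on chromosome 6 (52308389 to 52314832, minus strand), rose from 0.227, 0.217 and 1.86 CPM to 20.4, 16.5 and 16.5 CPM (log2 fold change 4.52, SE 0.68, adjusted p = 0.00158). This change was 6.34 without the replicate 3 libraries. *Lhx1os*, which starts beside *Lhx1* on the opposite strand of chromosome 11 (84525660 to 84535831), went from 0, 0.109 and 0.328 CPM to 3.18, 2.26 and 3.6 CPM (log2 fold change 4.30, adjusted p = 0.00226, and 5.47 without the replicate 3 libraries). The strand setting of the counting is not given in the sources used here, so reads of these 2 genes and of their coding partners may not be fully separated. The largest falls were those of 6330410L21Rik (-7.32, and -6.64 without day 0 replicate 1), *Halr1* in the *Hoxa* region (24.9, 39.2 and 14.4 CPM, then 1.12, 0.529 and 0.142 CPM, log2 fold change -5.43, and -6.26 without day 3 replicate 1) and Gm10522 (-5.12, and -5.77 without day 3 replicate 3).

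Both annotated genes at the *Meteor* locus, some distance before *Eomes* on chromosome 9, reached at most 6.35 CPM in any WT sample. Scaled for exon length, the day 0 and day 3 means were 9.81 and 3.93 RPKM for *Platr11* and 4.79 and 3.69 RPKM for 2610509F24Rik. *Platr11* (118404097 to 118406099, minus strand) had 6.35, 1.63 and 3.44 CPM at day 0 and 0.515, 2.55 and 1.52 CPM at day 3, which overlapped (log2 fold change -1.31, SE 0.64, adjusted p = 0.123). 2610509F24Rik (118402465 to 118403302, minus strand) had 6.06, 3.15 and 2.84 CPM and then 1.36, 4.42 and 3.51 CPM (log2 fold change -0.38, SE 0.48, adjusted p = 0.545). With 205 counts of *Platr11* over the 3 day 0 libraries and 96 over the 3 day 3 libraries, the difference did not exceed the spread between replicates. The paper reconstructed the *Meteor* lncRNA from other samples, sequenced far more deeply: ESCs and day 3 cells sorted by the *Eomes* reporter. There it reports a high level in ESCs and a low one in *Eomes*-positive cells. It also reports a fall during differentiation by qRT-PCR. The unsorted samples used here are unlike those in cells and depth. Whether these annotated genes cover that transcript was not tested.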

How the data were processed

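RNA of WT and *Meteor* KO mouse ESCs at day 0 and day 3 had been sequenced by the authors, in 3 samples per group of the 4 groups, as single reads of 100 bases from libraries with polyA selection. Reads were trimmed with Cutadapt (1.3), aligned to GRCm38 with STAR (2.4.2a) and counted per gene with htseq-count (HTSeq 0.6.1) by the authors, who deposited raw counts per gene. Kit and sequencer differ between the labels and the methods, and the strand setting of the counting is not given in the sources used here. The 5 closing rows of each file name no gene (46.3 to 48.98% of all reads in WT samples, mostly reads that aligned to several places) and were left out.

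Groups were taken from the labels. Of 46517 genes, those above 1 CPM in at least 1 of the 6 WT samples were tested with edgeR (4.0.16, R 4.3.3): TMM scaling, quasi-likelihood fit on day without a block, Benjamini-Hochberg adjustment over all genes tested. The authors' normalised values and comparisons were not used. Symbols, classes, coordinates and exon lengths came from GENCODE M21 and promoters from RefSeq (GRCm38.p6, 27025 genes). Gene lists and members were chosen with earlier results of these data known. Besides list genes, the text names the 10 PCGs with the largest rise and fall (adjusted p below 0.05, over 2-fold, no overlap, mean of at least 10 CPM on the higher day), the 5 with the largest gain and loss in mean CPM, 3 lncRNAs each way (mean of at least 3 CPM), the *Meteor* locus, and lncRNAs on the opposite strand within 5 kb of streak factors, of which Gm9967 (beside *Tbx6*) did not reach 1 CPM. The difference between the KO and the WT change was an interaction term over 12 samples with the replicate number as a block. The 6 same-numbered pairs of WT and KO samples of a day deviated together from their group means (correlations of 0.388 to 0.753), so the fit with the block within each day is given beside it. Tested on simulated counts for this comparison, the fit called 42 of 100 genes changed by 1 and 73 of 100 changed by 2 on the log2 scale, and 9 of the unchanged among 14724 genes. Far fewer genes were changed in the simulation than the 46% called in the data, so these shares need not hold for the real comparison. Alternatives were DESeq2 (1.42.0), limma-voom (limma 3.58.1), RLE scaling, other filters, all 12 samples, the replicate block, glmTreat and fits without 1 sample. Figures were drawn with matplotlib (3.10.9).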

Additional observations from a re-analysis of the deposited data

Results flagged for a closer look

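For 38 genes named above, the change from day 0 to day 3 in WT cells was set beside that in KO cells, with the difference tested as an interaction over all 12 samples (edgeR quasi-likelihood test, replicate block). The difference passed at 11 of 38, and at 15.5% of all 15673 genes tested. Of the 38 genes 30 were named for the size of their WT change, and the same WT libraries enter the difference, so nothing is read from setting these shares beside each other. Same-numbered WT and KO samples of a day deviated together, and with the replicate block within each day the difference passed at 17 genes, the 11 among them. Among these 11 the KO change was the lower of the 2 at 7 genes. On the log2 scale the difference (KO minus WT) was -7.25 for *Myl7* (-0.75 in KO cells against 6.50 in WT cells, adjusted p = 0.00267), -7.18 for *Mesp1* (adjusted p = 0.0417), -5.82 for *Sox17* (adjusted p = 0.00359), -5.68 for *Pkd1l1* (adjusted p = 0.00118) and -4.43 for *Foxa2* (adjusted p = 0.0025). It was -4.17 for *Asb4* (adjusted p = 0.0167) and -1.99 for *Eomes*, which changed by 0.98 in KO cells and 2.97 in WT cells (adjusted p = 0.0374). The KO change was the higher at 4 genes: *Otx2*, with a difference of 3.79 (6.03 against 2.24, adjusted p = 2.72e-04), *Dnmt3b*, with 1.74 (3.07 against 1.33, adjusted p = 0.0013), the meiotic gene *Stra8*, with 2.07 (-4.28 against -6.35, adjusted p = 0.0216), and *Hmgcs1*, with 0.37 (adjusted p = 0.0358). The 6 further genes that passed with the block within each day were *Cfc1* (difference -4.56, adjusted p = 0.0241), *Mixl1* (-3.56, adjusted p = 0.0231), *Nanog* (-1.16, adjusted p = 0.0428), *Klf4* (-1.11, adjusted p = 0.00238), *mt-Nd1* (0.59, adjusted p = 0.00224) and *Fgf5* (2.56, adjusted p = 0.00207). *T*, *Lhx1* and *Esrrb* passed under neither block. For *T* and *Lhx1* this leaves the difference unresolved, since its SE was 2.15 and 7.50, against 0.25 for *Esrrb*. At day 3 *T* had a mean of 525 CPM in WT and 6.31 CPM in KO cells, and *Lhx1* 243 and 2.02 CPM. At day 0 the WT and KO means were 29.5 and 0.529 CPM for *T* and 5.13 and 0.034 CPM for *Lhx1*. The sources used here do not say how many KO clones were sequenced, so an effect of the deletion and of a clone cannot be told apart in these samples. The paper states that its findings were repeated in another *Meteor*-deleted clone that was generated independently. In that clone *Eomes*, *T*, *Lhx1*, *Mixl1*, *Mesp1*, *Foxa2* and *Otx2* were measured by qRT-PCR.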

How the results depend on the processing

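The counts of PCGs that rose and fell, 3337 and 3195, moved by less than 1.5 times under DESeq2 (3416 and 3357), limma-voom (3266 and 3215), RLE scaling (3282 and 3266), a minimum of 10 counts in every sample (3003 and 2734), no filter (3371 and 3153) and all 12 samples (4213 and 3397). A test against a 2-fold change (glmTreat) called 1408 PCGs, of which 670 rose and 738 fell. Leaving out 1 sample at a time gave 4560 to 6007 PCGs in either direction, 2277 to 3060 that rose, 2283 to 2947 that fell, 1388 to 1905 that rose over 2-fold and 1231 to 1513 that fell over 2-fold. Without both replicate 3 libraries, an alternative chosen after seeing the data, 2567 PCGs rose and 2464 fell. With the replicate number as a block 2848 PCGs rose and 2762 fell, but the numbers did not pair the samples: the deviations of same-numbered WT samples from their group means correlated at -0.16, -0.283 and 0.026. Changes of direction were looked for only among the list and named genes, of which 628 were tested without day 3 replicate 3. Leaving out that library turned the log2 fold change of 7 of these genes from positive to a fall that passed the test. The ranges over the 6 samples left out in turn were -1.48 to 0.87 for *Bmp4*, -1.89 to 0.88 for *Myh7*, -2.13 to 2.98 for *Tbx2*, -1.88 to 0.92 for *Gata1*, -2.12 to 0.72 for *Gata2*, -0.69 to 0.57 for *Sfrp1* and -0.78 to 0.63 for *Peg10*, the low end in each case without that library. Changes of sign that passed the test neither before nor after are not counted. Without both replicate 3 libraries 6 of them were reversed, at -1.22 for *Bmp4*, -2.07 for *Myh7*, -2.07 for *Gata1*, -1.81 for *Gata2*, -0.61 for *Sfrp1* and -0.68 for *Peg10*. None of these genes passed the test with all samples. The number of genes with a different KO and WT change was 17 of 38 with the block within each day, and 7 to 13 when 1 sample was left out, with 7 without KO day 0 replicate 2 or KO day 3 replicate 3. The causes of these shifts were not tested. Depth limits the genes near 1 CPM, where 1 sample holds about 20 reads.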

Other observations

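Stress and growth-response genes also differed between the days. Immediate early genes, which serum and growth factors induce within minutes, fell at 9 of 16 and rose at none (1 rose without day 3 replicate 1, median log2 fold change -1.26). *Egr1* had 155, 187 and 169 CPM at day 0 and 58.3, 27 and 21.2 CPM at day 3 (log2 fold change -2.26, SE 0.35, adjusted p = 0.0017), and *Junb* (-1.80) and *Fosl1* (-3.61, and -4.45 without day 3 replicate 3) fell. Of 15 p53 target genes 10 fell and 2 rose (1 rose without day 0 replicate 1 or 3 or day 3 replicate 1 or 2). *Mdm2*, which encodes the ubiquitin ligase that limits p53, fell from 316, 224 and 216 CPM to 85.8, 86.3 and 110 CPM (log2 fold change -1.42, adjusted p = 0.000731) and *Eda2r* fell (-1.94), while the BH3-only gene *Pmaip1* rose from 36.3, 40.3 and 53.3 CPM to 183, 150 and 115 CPM (log2 fold change 1.79, adjusted p = 0.000532).

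Hypoxia response genes varied within each day more than between days. The sum over 14 genes was 2188, 1042 and 1197 CPM at day 0 and 947, 4033 and 2426 CPM at day 3, no gene had separate groups, and 2 of 14 rose, or 0 to 8 when 1 sample was left out (8 without day 3 replicate 1 and 0 without day 0 replicate 2 or 3 or day 3 replicate 2). *Ddit4*, a stress-induced inhibitor of mTOR signalling, had 124, 34.3 and 58.5 CPM and then 80.3, 590 and 484 CPM, a rise with all samples (log2 fold change 2.42, adjusted p = 0.0254, and 3.06 without day 0 replicate 1) that did not pass the test without day 0 replicate 2 or 3 or day 3 replicate 2 (adjusted p = 0.084, 0.0785 and 0.071). Of 22 glycolysis genes 3 rose and 2 fell (1 to 6 and 0 to 2 when 1 sample was left out, with 6 that rose and 0 that fell without day 0 replicate 1), and their sum, at 16798, 10276 and 11908 CPM and then 9647, 17046 and 12773 CPM, was highest at day 0 in replicate 1 and at day 3 in replicate 2, as was the hypoxia sum.

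Polycomb genes fell at 8 of 18 and rose at 4, or at 5 and 2 without day 0 replicate 2. *Eed*, a core subunit of the H3K27 methyltransferase complex, fell from 206, 250 and 237 CPM to 104, 102 and 85.4 CPM (log2 fold change -1.25, adjusted p = 0.000301), and *Jarid2* (-1.37), *Mtf2* (-1.19), *Suz12* (-0.60) and *Cbx7* (-1.01) fell, whereas *Cbx2* (0.81) rose and the catalytic gene *Ezh2* (-0.15, adjusted p = 0.282) did not pass the test. Of 39 *Hox* genes 14 were tested, of which 2 rose and 5 fell (1 and 2 without day 0 replicate 2 or 3), and 10 of the 14 were over 2-fold higher in day 3 replicate 3 than in both other day 3 samples. *Hoxa7*, which fell with all samples, did not exceed 1 CPM without day 0 replicate 2 and was not tested there. *Hoxb1*, the most anterior gene of its cluster, rose from 1.53, 1.2 and 2.89 CPM to 4.92, 4.57 and 8.96 CPM (log2 fold change 1.71, adjusted p = 0.0123). Of 10 MHC class I genes *B2m* (0.67), *H2-K1* (1.00) and *H2-D1* (0.83) rose and none fell, with 5 that rose without day 0 replicate 3. Among 20 cyclins and CDK inhibitors 3 rose and 5 fell, with *Cdkn1b* (1.38), the p27 gene, up and *Ccne1* (-1.42) and *Ccnd3* (-1.08) down. Oxidative phosphorylation genes fell at 6 of 25 (3 without day 0 replicate 2). Ribosomal protein genes fell at 10 of 79 (5 to 21 when 1 sample was left out, with 5 without day 0 replicate 2 and 21 without day 3 replicate 1). None rose in either list, against 22.5% of all genes tested that fell and 23.5% that rose.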
